A study of Mus musculus with 46 samples.

Results

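The 10 genes described here are those that mark the contractile and mural cells of the kidney: Acta2, Tagln, Cnn1, Myh11, Lmod1, Myocd, Rgs5, Cspg4, Mcam and Des. They were chosen by name as genes of smooth muscle cells, pericytes and myofibroblasts, and each matched 1 of the 53465 genes measured. Expression had been measured by RNA sequencing in 4 populations sorted from mouse kidneys by FACS: PDGFRB+ stromal cells, CD31+ endothelial cells, F4/80+ macrophages and LTL+ proximal tubular (PT) cells, LTL being Lotus lectin, which binds the proximal tubule. All mice were wild type (WT), and the methods give male C57BL/6 mice aged 8 to 12 weeks. They had sham surgery, unilateral ureteric obstruction (UUO), in which the ureter of 1 kidney is blocked, or rUUO, in which the obstructed ureter was reimplanted and the kidney was taken 14 days after reversal. The methods name days 2 and 7 for UUO, and the sample labels do not say to which of these a UUO sample belongs, so the UUO group may hold more than 1 time point. The values used here cover 44 samples: for sham, UUO and rUUO in turn, 4, 4 and 4 of stromal cells, 4, 3 and 4 of endothelial cells, 4, 4 and 3 of macrophages, and 3, 4 and 3 of PT cells. The labels do not say that samples of a group are separate mice, so the p-values below measure the spread between these samples.

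Pericytes wrap capillaries and vascular smooth muscle cells surround arterioles, and both belong to the mural cells, which carry the PDGF receptor PDGFRB. Smooth muscle cells contract through a set of actin-binding and myosin proteins whose genes are switched on by serum response factor (SRF) and its partner myocardin through DNA elements called CArG boxes. In injured kidneys, pericytes and fibroblasts can become myofibroblasts, cells that carry smooth muscle actin in stress fibres and deposit collagen.

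The stromal samples carried their defining marker Pdgfrb throughout, from 157 to 258 FPKM after sham surgery, from 92.9 to 174 after UUO and from 118 to 139.8 after rUUO. The other stromal markers, Pdgfra, Col1a1 and Col1a2, went the other way and lay wholly above sham in both groups, as for 13.2% and 16.1% of all genes. With Pdgfrb the 4 summed to between 444 and 1132 FPKM for sham, 4295 and 6940 for UUO and 2139 and 3181 for rUUO. FPKM counts sequenced fragments relative to transcript length and to the size of the library, so that it can be compared between genes of unequal length. The table holds no counts, and the absolute depth is unknown. Relative depth, read from the spacing of low values, ranged from 0.574 to 1.275 times the median sample in stromal cells. Mitochondrial genes took between 34 and 45.8% of the stromal FPKM after sham surgery, between 21.5 and 26.4% after UUO and between 20.2 and 25.9% after rUUO. Markers of other cell types moved with surgery in the stromal samples. For 3 thick ascending limb markers the summed FPKM ranged over 241 to 314 for sham, 28.2 to 54.1 for UUO and 49.1 to 84.9 for rUUO. For 3 distal tubule and collecting duct markers it ranged over 128 to 297, 1.52 to 8.04 and 4.99 to 19.7. For 6 PT markers it ranged over 29.4 to 58, 6.53 to 14.8 and 7.45 to 19.1, and for 3 podocyte markers over 34.4 to 92.9, 4.08 to 14.2 and 24.9 to 45.3. For 6 endothelial markers it ranged over 65.1 to 86, 35.5 to 59.3 and 53.8 to 107.6, so that UUO lay wholly below sham there too. The sum of 6 macrophage markers overlapped between surgeries and lay between 18 and 36.9 FPKM in every stromal sample. Of 5 skeletal muscle markers, Ckm was at 0 in all sham and UUO stromal samples and the sum did not pass 3.74 FPKM. The part of these moving markers in the results below was not tested, and in sorted bulk RNA fewer cells of a type and less RNA per cell cannot be told apart.

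All 10 genes had their highest mean in stromal cells in sham kidneys, and for 8 of them every stromal sham sample lay above every sham sample of the other populations. The share of all genes that did so was not computed. The 10 had been listed as genes of PDGFRB+ cells, so their order across populations is a description with no test. Mcam and Cnn1 overlapped with endothelial cells. Rgs5 was the highest of the 10 in sham stromal cells at 268 ± 110.3 FPKM (SD, n = 4), and in that group Acta2 followed at 139 ± 88.6, Des at 112 ± 20.1, Mcam at 78.4 ± 14.2, Cspg4 at 57.2 ± 9.91, Tagln at 54.9 ± 16.2, Myh11 at 39.5 ± 26.5, Cnn1 at 19.8 ± 28.7, Myocd at 5.75 ± 5.34 and Lmod1 at 3.93 ± 1.29. The range of each gene overlapped that of its neighbour in this order, but all were read in the same 4 samples. Sample by sample, Rgs5 lay above Acta2, Des above Mcam, Mcam above Cspg4 and Myh11 above Cnn1 in all 4. No test was made of the order. In sham endothelial cells the order was different: Mcam led at 47.9 ± 9.65 FPKM (SD, n = 4), with Rgs5 at 43 ± 6.2 and Acta2 at 37.3 ± 8.15, and the other 7 genes had means under 8. In sham macrophages and sham PT cells none of the 10 had a mean above 3 FPKM. Macrophages carried Tagln at 3 ± 3.79 FPKM (SD, n = 4), most of it in 1 sample at 8.63 FPKM, and PT cells carried Cspg4 at 2.68 ± 1.16 FPKM (SD, n = 3). Myocd and Lmod1 stayed under 2 FPKM in every endothelial, macrophage and PT sample.

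**Figure D1:**
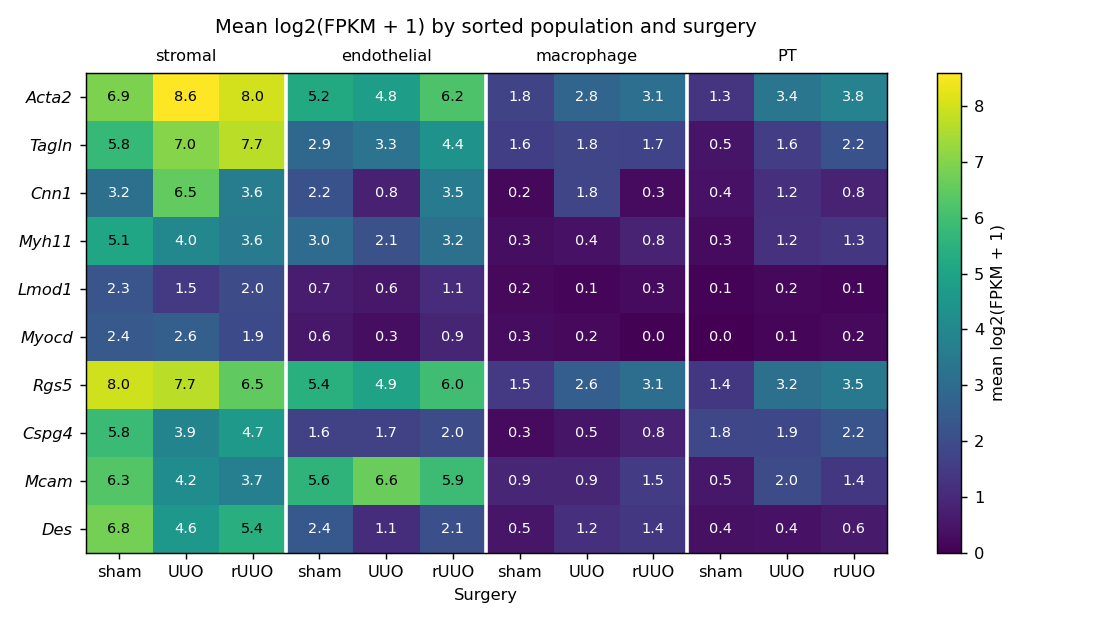
Mean log2(FPKM + 1) of the 10 genes (vertical) in the 12 groups of sorted population and surgery (horizontal), with the mean written in each cell and shown by colour. Stromal columns are brightest for every gene in sham, and Mcam is brighter in endothelial than in stromal cells after UUO and rUUO.

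The main question was how the 10 genes moved in stromal cells after obstruction and after its reversal. Groups were compared by limma on log2(FPKM + 1) across the genes whose mean reached 1 FPKM, and a gene is said to rise or fall where the Benjamini-Hochberg adjusted p was under 0.05. All changes below are log2 differences on that scale. In UUO against sham, 3 of the 10 genes rose (Acta2, Tagln and Cnn1) and 3 fell (Cspg4, Mcam and Des). Across all 14033 genes tested, 13.4% rose and 13% fell, 26.4% in all. In rUUO against UUO, none of the 10 passed, against 4.17% of all genes, and 5 had an unadjusted p under 0.05, against 19.8% of all genes. In rUUO against sham, Tagln rose and 4 genes fell (Rgs5, Cspg4, Mcam and Des), against 11.6% of all genes rising and 5.57% falling, 17.2% in all. The median change of the 10 genes was -0.53, -0.45 and -0.82 in the 3 comparisons, where that of all genes was -0.07, 0.19 and 0.15. The comparisons share samples and are not independent of each other. Rescaling to the FPKM without mitochondrial genes moved the median of all genes to -0.25 in UUO against sham and to -0.05 in rUUO against sham. The split of genes that rose and fell then went from 1881 and 1823 to 1562 and 2427 in the first, and from 1626 and 781 to 1047 and 990 in the second. Quantile normalization gave 1207 and 1135 in the second, and 192 and 168 in rUUO against UUO where 414 and 171 had passed. The 11 calls among the 10 genes kept their direction and stayed under the threshold in all 20 alternatives tried for each.

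**Figure D2:**
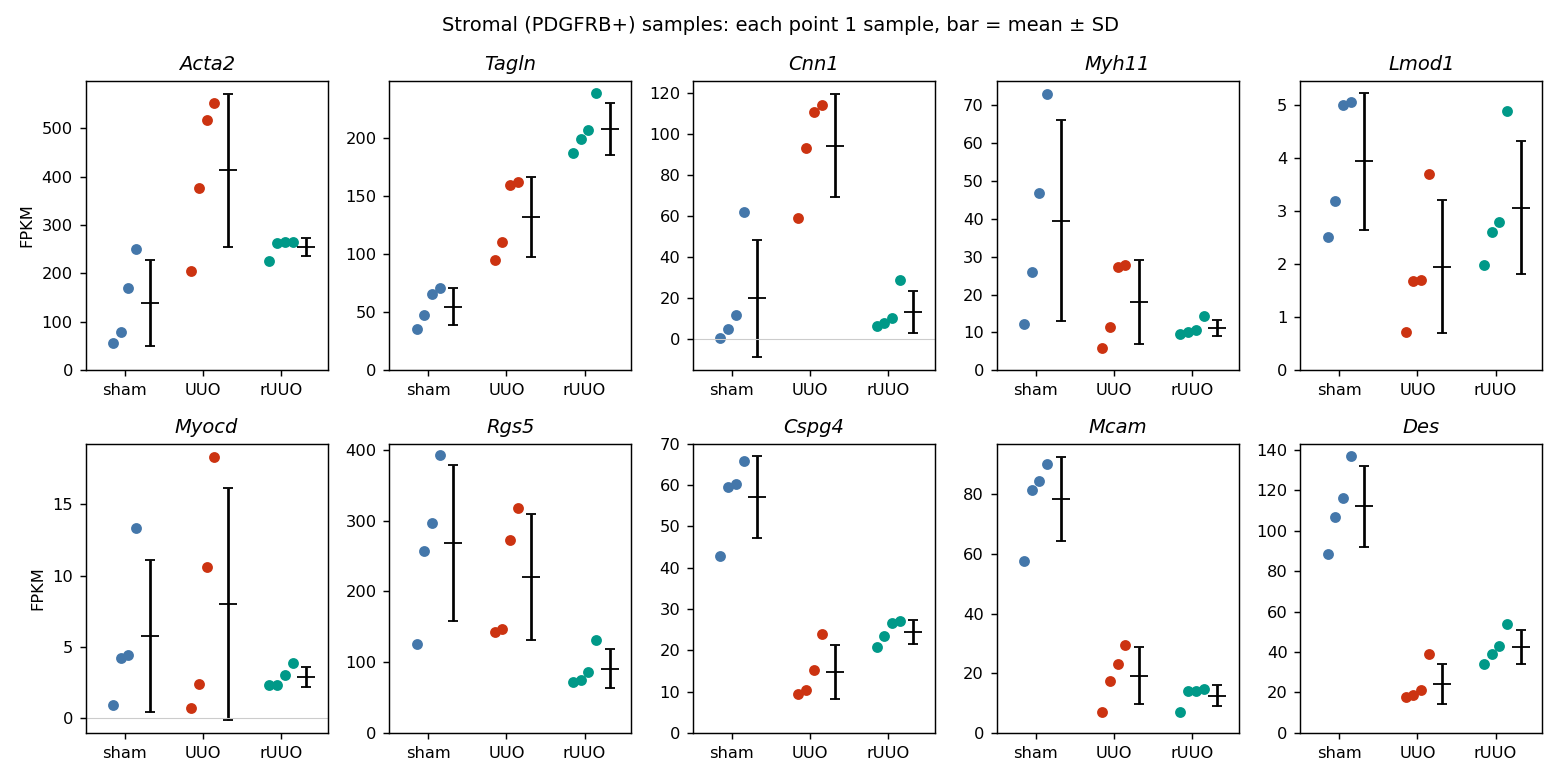
FPKM (vertical, linear) of each gene in the 12 stromal samples, by surgery (horizontal); each point is 1 sample and the bars give the mean ± SD of 4. Tagln steps up from sham to UUO to rUUO without overlap, Cnn1 is higher in UUO than in rUUO without overlap, and Cspg4, Mcam and Des are low in every UUO and rUUO sample.

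Acta2, which encodes smooth muscle α-actin and is the usual marker of myofibroblasts, lies on chromosome 19 (34241090 to 34255336, minus strand, GRCm38). It had 249.9, 169.6, 56.4 and 79.8 FPKM in the stromal sham samples, 376, 518, 553 and 204 in UUO, and 264, 262, 226 and 266 in rUUO. The highest sham sample lay above the lowest UUO sample and within the range of rUUO, so the groups overlapped, and the 4 rUUO samples lay close together. Acta2 rose by 1.70 ± 0.39 (SE) in UUO against sham (limma, adjusted p = 0.00396). Its change was 1.10 ± 0.39 in rUUO against sham (adjusted p = 0.0646), and it passed without sham replicate 1 (1.46, adjusted p = 0.0121), without UUO replicate 4 (adjusted p = 0.0406), after rescaling to TPM (1.18, adjusted p = 0.0493) and in 1 fit over all 4 populations (adjusted p = 0.0201). In rUUO against UUO it was -0.60 ± 0.39 (adjusted p = 0.419). Of the 50-base stretches of its transcripts, 0.326% occurred in another gene, the pseudogene Actg-ps1 above all.

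Because Acta2 and Cnn1 rose where Cspg4 and Mcam fell, the 250 bases upstream of the RefSeq start of these 4 genes are shown. They are from GRCm38.p6 and run 5′ to 3′ on the strand of the gene. The RefSeq starts of these 4 differ from the gene positions given in this text. By those positions Mcam starts at 44134469, so most of its stretch, with all 5 GC boxes, lies inside the gene. The ends of the Cnn1 and Cspg4 stretches also lie inside, and the Acta2 stretch stops short of the gene. Such a promoter was found for 7 of the 10 genes and was missing for Tagln, which also rose, Myh11 and Myocd. Those of Des, which also fell, Lmod1 and Rgs5 are not shown. All 7 were searched on both strands for the CArG box, a 10-letter SRF motif with an A/T core, and for the GC box GGGCGG and TATAAA. The search included a CArG-like box, in which 1 core base may differ and which includes the exact box. Capitals mark the CArG-like boxes in Acta2 and the GC boxes, on either strand, in Cspg4 and Mcam.
Acta2 promoter (chr19:34255374-34255623, minus strand): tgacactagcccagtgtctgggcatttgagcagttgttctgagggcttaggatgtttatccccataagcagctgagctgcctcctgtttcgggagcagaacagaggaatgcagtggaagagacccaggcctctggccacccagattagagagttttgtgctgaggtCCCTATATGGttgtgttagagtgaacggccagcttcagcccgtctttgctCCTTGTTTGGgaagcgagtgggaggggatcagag
Cnn1 promoter (chr9:22099003-22099252, plus strand): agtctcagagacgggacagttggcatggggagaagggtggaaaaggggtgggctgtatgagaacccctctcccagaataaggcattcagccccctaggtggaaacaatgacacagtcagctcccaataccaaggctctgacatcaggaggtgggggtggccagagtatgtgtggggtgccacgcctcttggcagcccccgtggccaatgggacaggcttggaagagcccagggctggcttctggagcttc
Cspg4 promoter (chr9:56864854-56865103, plus strand): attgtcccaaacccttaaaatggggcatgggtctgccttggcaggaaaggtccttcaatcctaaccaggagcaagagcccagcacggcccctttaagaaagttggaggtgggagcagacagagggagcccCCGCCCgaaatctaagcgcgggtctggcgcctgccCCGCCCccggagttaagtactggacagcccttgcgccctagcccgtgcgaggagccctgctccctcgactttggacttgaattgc
Mcam promoter (chr9:44134408-44134657, plus strand): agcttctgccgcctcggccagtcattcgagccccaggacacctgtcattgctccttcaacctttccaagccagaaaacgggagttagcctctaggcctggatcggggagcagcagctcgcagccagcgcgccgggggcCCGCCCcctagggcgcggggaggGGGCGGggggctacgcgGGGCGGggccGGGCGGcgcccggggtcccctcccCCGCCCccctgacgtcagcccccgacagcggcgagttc

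Acta2 held 2 CArG-like boxes, at -84 to -75 and at -34 to -25 from the RefSeq start, each 1 base off the exact box. None of the other 6 promoters held one, and 8.59% of 32851 mouse promoters of this length do, 1.47% for the exact box. GC boxes occurred in 32.7% of the 32851 promoters, and Mcam held 5, Cspg4 and Des 2 each and Lmod1 1, while TATAAA (12.4% of the promoters) was in none of the 7. These matches are letters in a short window and say nothing of binding. GC content ranged from 53.2% for Lmod1 to 73.6% for Mcam.

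Tagln, which encodes transgelin (SM22α), an actin-binding protein of smooth muscle, lies on chromosome 9 (45929619 to 45936058, minus strand). Stromal FPKM of Tagln was 70.7, 65.7, 35.8 and 47.3 in sham, 110.6, 159.8, 162 and 95.2 in UUO, and 239, 187, 199 and 207 in rUUO. All 4 UUO samples exceeded the sham samples, and all 4 rUUO samples exceeded both. Of all genes tested, 13.2% lay wholly above in UUO against sham, 8.4% in rUUO against UUO and 16.1% in rUUO against sham. Against sham, Tagln rose by 1.26 ± 0.23 after UUO (limma, adjusted p = 0.000659) and by 1.95 ± 0.23 after rUUO (adjusted p = 2.32e-05), and its change in rUUO against UUO was 0.68 ± 0.23 (adjusted p = 0.107). Exons of Tagln overlap Pcsk7 and the antisense gene Gm48529 on the other strand, and the reads of such partners cannot be told apart without strand.

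Cnn1, which encodes calponin, a regulator of actomyosin in differentiated smooth muscle, lies on chromosome 9 (22099216 to 22109630, plus strand). It was the most variable of the contractile genes, with 62.2, 11.8, 0.43 and 4.63 FPKM in stromal sham, 93, 114, 111 and 59.2 in UUO, and 6.47, 10.3, 7.8 and 28.5 in rUUO. All 4 UUO samples lay above all 4 rUUO samples, and 3 of 4 sham samples lay under 12 while 1 overlapped UUO. Of all genes, 2.98% lay wholly below in rUUO against UUO. Cnn1 rose by 3.36 ± 0.80 in UUO against sham (limma, adjusted p = 0.00522). Its change was -2.93 ± 0.80 in rUUO against UUO (adjusted p = 0.0513), which passed without sham replicate 1 (adjusted p = 0.014), without sham replicate 3 (adjusted p = 0.0141) and in the fit over all 4 populations (adjusted p = 0.0137). It was 0.44 ± 0.80 in rUUO against sham (adjusted p = 0.781), and -0.45 without sham replicate 3.

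Myh11, the smooth muscle myosin heavy chain a marker of mature smooth muscle, lies on chromosome 16 (14194527 to 14291408, minus strand). It had 73, 46.8, 12.2 and 25.8 FPKM in stromal sham, 11.4, 27.3, 27.7 and 5.88 in UUO, and 14.4, 9.69, 10 and 10.5 in rUUO. The lowest sham sample lay among the UUO and rUUO samples, and the 3 other sham samples lay above every rUUO sample. The change was -1.05 ± 0.50 in UUO against sham (limma, adjusted p = 0.137), -0.43 ± 0.50 in rUUO against UUO (adjusted p = 0.674) and -1.48 ± 0.50 in rUUO against sham (adjusted p = 0.053). Without sham replicate 3, Myh11 passed in UUO against sham (-1.49, adjusted p = 0.0282) and in rUUO against sham (-1.93, adjusted p = 0.00997), and the second also passed without UUO replicate 3 (adjusted p = 0.0466) and without UUO replicate 4 (adjusted p = 0.0294). In 1 fit over all 4 populations both passed (adjusted p = 0.034 and 0.00379), and the second did after rescaling without mitochondrial genes (-1.74, adjusted p = 0.0351) and with quantile normalization (-1.72, adjusted p = 0.0234). Within its 50-base stretches, 0.34% occurred in Myh9, a non-muscle myosin.

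Lmod1, leiomodin, which nucleates actin filaments in smooth muscle, lies on chromosome 1 (135324807 to 135368065, plus strand) and was the lowest of the 10 in sham stromal cells. It had 4.99, 5.05, 2.5 and 3.19 FPKM in stromal sham, 0.72, 1.68, 3.69 and 1.7 in UUO, and 4.88, 2.79, 1.98 and 2.6 in rUUO. The 3 groups overlapped. The largest change was -0.80 ± 0.37 in UUO against sham (limma, adjusted p = 0.125), which passed without UUO replicate 3 (-1.05, adjusted p = 0.046) and in 1 fit over all 4 populations (adjusted p = 0.018).

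Myocd, which encodes myocardin, lies on chromosome 11 (65176561 to 65269989, minus strand). Its stromal values were 13.4, 4.25, 0.9 and 4.46 FPKM in sham, 2.39, 10.6, 18.3 and 0.71 in UUO, and 3.87, 2.33, 2.34 and 3.02 in rUUO. Sham and UUO each ran from under 1 to over 13 FPKM, and rUUO lay inside both ranges. The changes were 0.18 ± 0.68, -0.64 ± 0.68 and -0.46 ± 0.68 in the 3 comparisons (limma, adjusted p = 0.873, 0.638 and 0.72), and the sign of the first turned without UUO replicate 2 (-0.13), UUO replicate 3 (-0.38) or sham replicate 3 (-0.31). The SE of Myocd, 0.68, compares with 0.23 for Tagln, so that only a far larger change could have passed.

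Rgs5, a regulator of G protein signalling and the most used pericyte marker, lies on chromosome 1 (169655501 to 169695813, plus strand). It had 392, 297, 126 and 257 FPKM in stromal sham, 147, 273, 318 and 143 in UUO, and 131, 72.6, 74.4 and 85.5 in rUUO. Sham and UUO overlapped, and every rUUO sample lay below every UUO sample, as for 2.98% of all genes. Rgs5 fell by 1.48 ± 0.33 after rUUO relative to sham (limma, adjusted p = 0.00548), although the lowest sham sample lay within the rUUO range. Its change was -0.26 ± 0.33 in UUO against sham (adjusted p = 0.605) and -1.22 ± 0.33 in rUUO against UUO (adjusted p = 0.0521). The latter passed without sham replicate 3 (adjusted p = 0.0244), without UUO replicate 4 (-1.40, adjusted p = 0.0464) and in the fit over all 4 populations (adjusted p = 0.0185).

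Cspg4, which encodes the NG2 proteoglycan on the surface of pericytes, lies on chromosome 9 (56865033 to 56899870, plus strand). It had 59.6, 65.9, 60.2 and 42.9 FPKM in stromal sham, 9.32, 15.3, 23.8 and 10.5 in UUO, and 27, 20.8, 23.4 and 26.5 in rUUO. Every sham sample lay above every UUO and rUUO sample, as 13.4% of all genes did against UUO and 7.74% against rUUO. Against sham, Cspg4 fell by 1.96 ± 0.26 after UUO (limma, adjusted p = 3.93e-05) and by 1.18 ± 0.26 after rUUO (adjusted p = 0.0044). In rUUO against UUO it was 0.77 ± 0.26 (adjusted p = 0.108), which passed without UUO replicate 3 (1.02, adjusted p = 0.0175).

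Mcam (CD146), an adhesion molecule of pericytes, smooth muscle and endothelium, lies on chromosome 9 (44134469 to 44142727, plus strand) and its exons overlap the antisense gene Gm10687. Stromal Mcam was 90.1, 81.3, 84.5 and 57.8 FPKM in sham, 17.4, 23, 29.4 and 6.87 in UUO, and 14.1, 14.6, 7.16 and 14.2 in rUUO. No UUO or rUUO sample reached the lowest sham sample, as for 13.4% of all genes in UUO and 7.74% in rUUO. UUO and rUUO overlapped each other. Against sham, Mcam fell by 2.12 ± 0.35 after UUO (limma, adjusted p = 0.00034) and by 2.58 ± 0.35 after rUUO (adjusted p = 9.32e-05), the largest fall of the 10 genes in that comparison, and was -0.46 ± 0.35 in rUUO against UUO (adjusted p = 0.493).

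Des, desmin, the intermediate filament of muscle that in the kidney marks pericytes and mesangial cells, lies on chromosome 1 (75360329 to 75368579, plus strand), and its exons overlap the antisense gene Gm15179. It had 136.8, 116, 106.8 and 88.6 FPKM in stromal sham, 18.8, 17.6, 39.1 and 21.4 in UUO, and 43, 39.2, 34.2 and 54 in rUUO. Sham lay wholly above both other groups, as for 13.4% of all genes against UUO and 7.74% against rUUO. UUO and rUUO overlapped through 1 UUO sample at 39.1. Against sham, Des fell by 2.22 ± 0.24 after UUO (limma, adjusted p = 6.44e-06) and by 1.38 ± 0.24 after rUUO (adjusted p = 0.000845). Its change in rUUO against UUO was 0.84 ± 0.24 (adjusted p = 0.0648), and it passed without UUO replicate 3 (1.09, adjusted p = 0.00764).

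**Figure D3:**
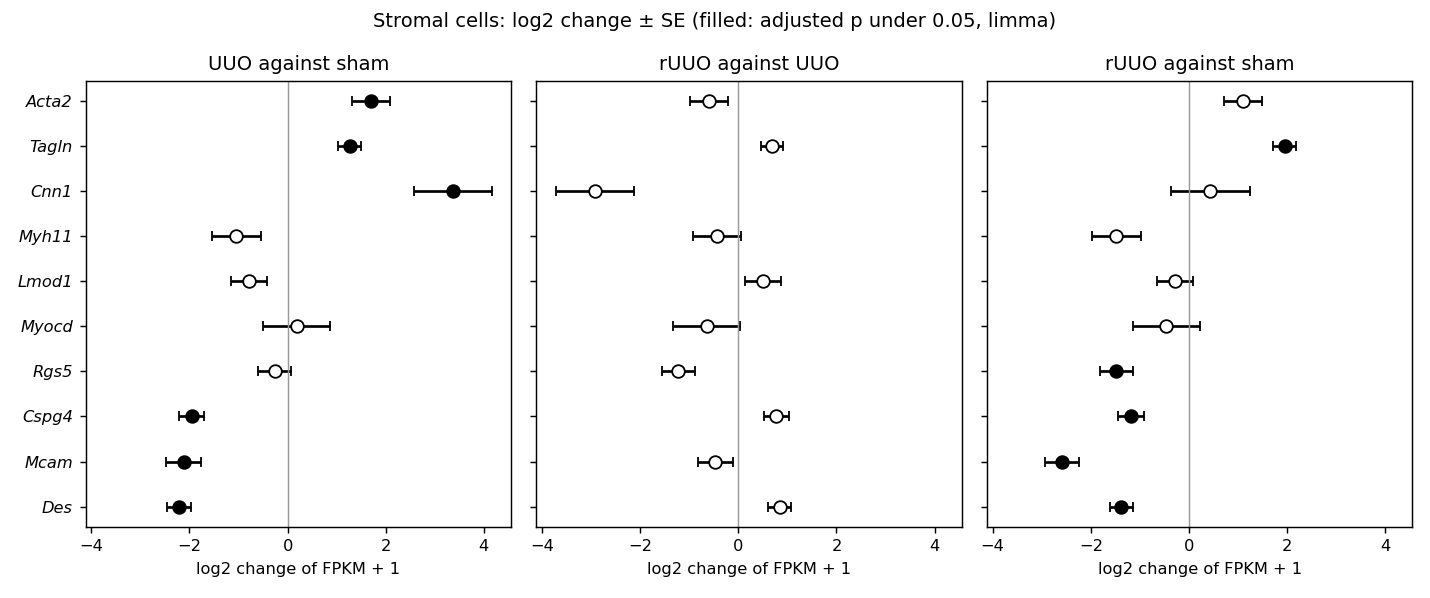
Log2 change of FPKM + 1 (horizontal, ± SE) of each gene (vertical) in stromal cells in the 3 comparisons; filled points had an adjusted p under 0.05 (limma). After UUO, Acta2, Tagln and Cnn1 are filled on the right and Cspg4, Mcam and Des on the left, no point is filled in rUUO against UUO, and Tagln alone is filled on the right in rUUO against sham.

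The 10 genes varied together among samples of the same surgery. Across the 12 stromal samples, 31 of their 45 pairs had a positive Pearson r on log2(FPKM + 1) and 14, or 31.1%, a negative one, against 44.8% negative over all pairs of 9018 genes. These 9018 genes had a stromal mean of at least 5 FPKM, which Lmod1 did not reach, so its pairs are outside that set. After the mean of each surgery group was taken off, none of the 45 was negative and r ran from 0.187 to 0.985, against 45.6% negative over all pairs. Tagln and Myh11 had r = -0.33 across the 12 samples and 0.985 within groups, and Tagln and Rgs5 had -0.44 and 0.948. Acta2 and Myh11 had 0.08 and 0.955. Cspg4 and Des were alike in both, with 0.968 and 0.749. These values describe samples that share their library and their scaling, and no test was made of them. Sham shows the pattern: sample 1 was highest and sample 3 lowest of the 4 for Acta2, Tagln, Cnn1, Myh11, Myocd and Rgs5, whereas Cspg4 and Mcam had 60.2 and 84.5 FPKM in sample 3, in the upper part of their range. Ren1, renin, the product of the juxtaglomerular cells of the arteriole wall, was likewise at 218 FPKM in sham sample 1 and 19.4 in sample 3.

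Ratios within a sample set 1 gene against another at the same depth. They were chosen after the values were seen and are given with no test. How often the ratios of other gene pairs lie apart between surgeries was not computed. Acta2 was 3.42, 3.62, 4.61 and 3.09 times Myh11 in the stromal sham samples, 33.1, 19, 19.9 and 34.7 times in UUO, and 18.3, 27.1, 22.5 and 25.3 times in rUUO. Sham did not overlap the others, although Acta2 itself did, and UUO and rUUO overlapped. The ratio of Acta2 to Rgs5 lay between 0.31 and 0.637 for sham, 1.42 and 2.56 for UUO and 2.02 and 3.61 for rUUO. That of Tagln to Myh11 lay between 0.968 and 2.93, 5.85 and 16.2, and 16.6 and 19.9, with no overlap between any groups. Acta2 against Actg2 went the other way, between 17.3 and 283 for sham, 3.04 and 10.4 for UUO and 26.6 and 83 for rUUO, with UUO below both and rUUO inside the range of sham.

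**Figure D4:**
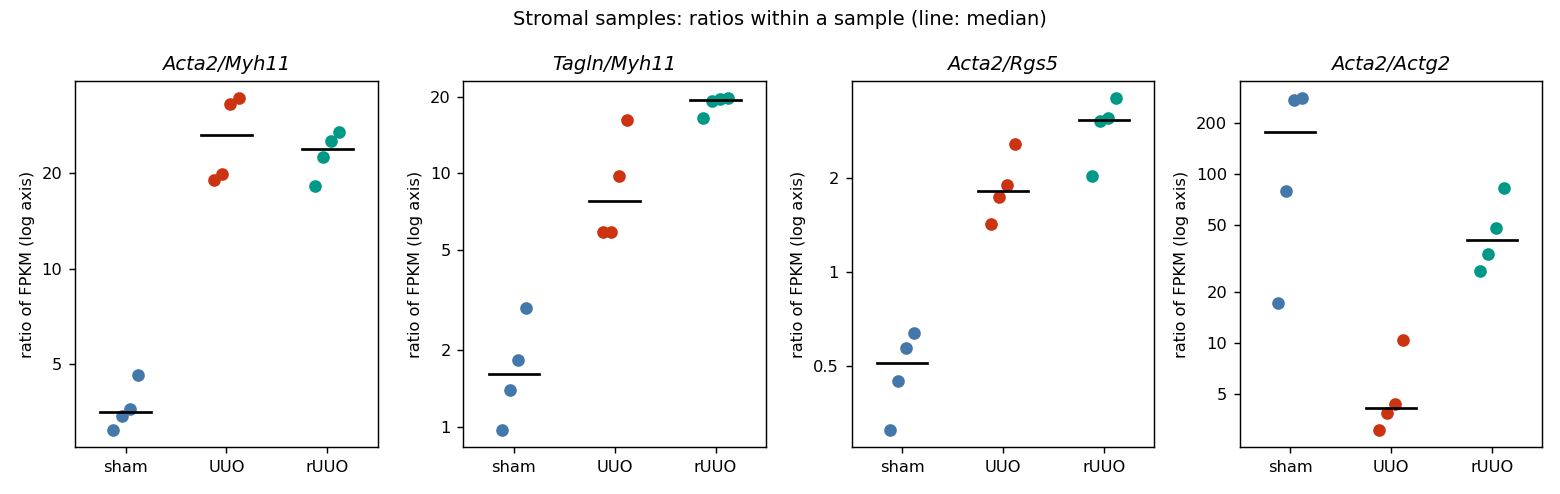
Ratio of the FPKM of 2 genes (vertical, log axis) in each of the 12 stromal samples, by surgery (horizontal); points are samples and lines medians. The 4 sham samples lie below every UUO and rUUO sample in the first 3 panels, while UUO is lowest for Acta2/Actg2, with medians of Acta2/Myh11 at 3.52 in sham, 26.5 in UUO and 23.9 in rUUO.

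Further contractile genes moved in both directions. Of 20 further genes of the contractile apparatus, 19 were tested in stromal cells, and 4 rose and 8 fell in UUO against sham. Actg2, enteric γ-actin, rose by 5.06 ± 0.58 (limma, adjusted p = 1.09e-05), from 1.82 ± 1.59 FPKM (SD, n = 4) in sham to 105 ± 66.7 in UUO. After reversal it was lower than after UUO, with a change of -3.56 ± 0.58 (adjusted p = 0.00419), at 6.33 ± 2.82 FPKM, the only one of the 19 to fall there. Ppp1r14a, an inhibitor of myosin phosphatase, was the only one to rise there, with a change of 1.75 ± 0.43 (adjusted p = 0.0334). Synpo2 and Tpm1, which bind actin, rose by 1.07 ± 0.32 and 0.94 ± 0.21 in UUO against sham (adjusted p = 0.0199 and 0.00315). Itga8, the α8 integrin of mesangial and smooth muscle cells, fell by 4.89 ± 0.39 (adjusted p = 4.37e-07), from 293 ± 32.6 to 11.1 ± 8.91 FPKM. Myl9, the regulatory light chain of smooth muscle myosin, fell by 1.89 ± 0.23 (adjusted p = 1.8e-05) and Vcl, vinculin, by 1.57 ± 0.23 (adjusted p = 0.000121). In rUUO against sham, 2 of the 19 rose (Tpm1 by 0.71 ± 0.21, adjusted p = 0.0255, and Actn1 by 0.98 ± 0.30, adjusted p = 0.0347) and 6 fell, with Itga8, Myl9 and Vcl down by 4.08, 2.14 and 1.40. The list's median change was -0.70, 0.11 and -0.44 in the 3 comparisons, where 26.4%, 4.17% and 17.2% of all genes passed.

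Of 11 paralogs of Acta2, Cnn1, Tagln and Lmod1, 6 passed the filter in stromal cells and these 6 rose in UUO against sham, among them Cnn3 by 1.08 ± 0.20 (limma, adjusted p = 0.000766), Actg1 by 1.03 ± 0.15 (adjusted p = 0.000127), Tagln2 by 0.57 ± 0.15 (adjusted p = 0.0116) and the cytoskeletal Actb by 0.47 ± 0.15 (adjusted p = 0.0314). In rUUO against UUO, 1 of the 6 fell (Actg2), and in rUUO against sham 3 rose, Tagln2 by 0.88 ± 0.15 (adjusted p = 0.000782), Cnn3 by 0.85 ± 0.20 (adjusted p = 0.0067) and Actg1 by 0.64 ± 0.15 (adjusted p = 0.00844). Across all genes, 13.4% rose in UUO against sham and 11.6% in rUUO against sham, and 4.17% passed in rUUO against UUO.

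Transcription factors and Notch signals that act on the contractile program formed a list of 14 genes, all tested. In UUO against sham 2 rose and 2 fell, which is near the 26.4% of all genes that passed. None passed in rUUO against UUO, against 4.17% of all genes (4 of 14 with an unadjusted p under 0.05, against 19.8% of all genes). In rUUO against sham 3 rose and 1 fell, where 17.2% of all genes passed. Klf4, which represses smooth muscle genes, rose by 2.53 ± 0.34 in UUO against sham (limma, adjusted p = 4.6e-05), from 6.75 ± 5.35 to 38.9 ± 10.6 FPKM (SD, n = 4), and was 2.01 ± 0.34 above sham in rUUO (adjusted p = 0.000594). Tbx18, a mural cell factor, rose by 1.99 ± 0.36 (adjusted p = 0.000637) and was 1.17 ± 0.36 above sham in rUUO (adjusted p = 0.0329), and Tcf21, a factor of the stroma, rose by 1.61 ± 0.47 in rUUO against sham (adjusted p = 0.0274). Notch3, the Notch receptor of mural cells, fell by 0.95 ± 0.30 in UUO (adjusted p = 0.0303) and by 1.32 ± 0.30 in rUUO (adjusted p = 0.0063), and the Notch ligand gene Jag1 fell by 0.77 ± 0.23 in UUO (adjusted p = 0.0212) and was 0.06 ± 0.23 from sham in rUUO (adjusted p = 0.905). Srf itself changed by -0.20 ± 0.31 and 0.30 ± 0.31 against sham (adjusted p = 0.663 and 0.578).

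Of 14 other pericyte genes, all tested, 4 rose and 4 fell in UUO against sham, 1 fell in rUUO against UUO, and 2 rose and 5 fell in rUUO against sham. The shares of all genes that passed were 26.4%, 4.17% and 17.2%. Anpep, the aminopeptidase CD13, rose by 1.64 ± 0.21 in UUO (limma, adjusted p = 2.88e-05), Adora2a, an adenosine receptor, by 1.99 ± 0.38 (adjusted p = 0.0012) and Kcnj8, a potassium channel of pericytes, by 1.43 ± 0.35 (adjusted p = 0.00696). Gucy1b3, a subunit of the nitric oxide receptor, and Mef2c fell by 1.51 ± 0.29 and 1.40 ± 0.25 (adjusted p = 0.00124 and 0.000705). Pdgfrb, the gene of the sorting marker, fell by 0.88 ± 0.21 in UUO and by 0.70 ± 0.21 in rUUO against sham (adjusted p = 0.00502 and 0.0291). Cd248, endosialin, was the gene that fell after reversal relative to UUO, with a change of -0.99 ± 0.22 (adjusted p = 0.0241). Against sham, rUUO samples differed in 7 genes: Ndufa4l2, Trpc6 and Mef2c fell by 1.86, 1.68 and 1.34 and were among 5 that fell, while Adora2a and Anpep rose by 1.51 and 1.29.

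Genes of mesangial and renin cells, which are also mural, were largely lower after either surgery than in sham. Of 5 tested, 4 fell in UUO and 4 in rUUO against sham, where 13% and 5.57% of all genes fell, with list medians of -3.38 and -3.40. None passed in rUUO against UUO, where the median was 0.57 and 3 had an unadjusted p under 0.05, against 19.8% of all genes. Gata3, a mesangial factor that the collecting duct also expresses, had 108 ± 15.9 FPKM (SD, n = 4) after sham surgery, 0.993 ± 0.617 after UUO and 1.97 ± 0.90 after rUUO, with changes of -5.81 ± 0.29 and -5.24 ± 0.29 (limma, adjusted p = 1.08e-08 and 6.21e-08), and the summed collecting duct markers given above were lower in the same samples. Ren1 fell by 3.21 ± 0.63 in UUO and by 4.64 ± 0.63 in rUUO (adjusted p = 0.00127 and 8.61e-05). Agtr1a, the angiotensin II receptor, fell by 3.86 ± 0.32 in UUO and 3.40 ± 0.32 in rUUO (adjusted p = 6.07e-07 and 3.39e-06), and Akr1b7, a renin cell enzyme, fell by 3.38 ± 0.45 in UUO (adjusted p = 4.49e-05).

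Fibroblast and matrix genes, by contrast, rose together: 18 of 20 rose in UUO against sham and 18 in rUUO against sham, none fell, and 1 rose and 7 fell in rUUO against UUO. The list medians were 3, 2.26 and -0.57. All genes rose in 13.4% and 11.6% of cases against sham, and 4.17% passed in rUUO against UUO. Cthrc1, secreted by activated fibroblasts, had 2.39 ± 3.79 FPKM (SD, n = 4) after sham surgery, 185 ± 66.5 after UUO and 9.9 ± 3.89 after rUUO, with changes of 6.24 ± 0.51 (limma, adjusted p = 4.85e-07) and then -4.10 ± 0.51 (adjusted p = 0.000705). Postn, periostin, rose by 4.95 ± 0.33 (adjusted p = 7.02e-08) and was lower after reversal than after UUO (-2.12 ± 0.33, adjusted p = 0.0029), as was Lox, which cross-links collagen (-2.32 ± 0.40, adjusted p = 0.00638). Timp1, a protease inhibitor, rose by 5.56 ± 0.47 in UUO and was 5.07 ± 0.47 above sham in rUUO (adjusted p = 6.08e-07 and 2.68e-06). Spp1, osteopontin, was the gene higher after reversal than after UUO (0.82 ± 0.18, adjusted p = 0.0231), and with Fn1, fibronectin, was 3.27 and 3.35 above sham in rUUO.

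The genes most like Acta2 over the 12 stromal samples, by Pearson r of log2(FPKM + 1) among the 9018 genes whose mean reached 5 FPKM, were Tpm1 (r = 0.944), Csnk1d (0.941), Ube2j1 (0.933), Gm42427 (0.929) and Rnf19b (0.927). Those most like Rgs5 were Ipo13 (0.879), Chn1 (0.877), Ren1 (0.837), Rnaseh2b (0.833) and Ncoa6 (0.826). These ranks are a description of 12 samples that share surgery groups.

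In endothelial cells 8 of the 10 genes passed the filter, and Mcam alone passed the test. Mcam was 49.7, 44.1, 60.2 and 37.4 FPKM in endothelial sham, 109.4, 90.1 and 94.6 in UUO, and 59.9, 50, 72.6 and 55.7 in rUUO. All 3 UUO samples lay above all others; 6.17% of genes lay wholly above sham in UUO, and 2.17% lay wholly below UUO in rUUO. Mcam rose by 1.03 ± 0.21 in UUO against sham (limma, adjusted p = 0.0143), where 1.98% of 13393 genes passed and 1.28% rose, and lost the call without UUO replicate 1 (0.95, adjusted p = 0.0781), without the intensity trend (adjusted p = 0.0698) and in 1 fit over all 4 populations (adjusted p = 0.109). None of the 8 passed in rUUO against UUO (0.0597% of genes did) or in rUUO against sham (1.77%), and 6 and 4 of them had an unadjusted p under 0.05, against 10.2% and 14.1% of genes. Endothelial Rgs5 lay between 27 and 32.7 FPKM after UUO and between 50.4 and 69.5 after rUUO, and Acta2 between 16.4 and 43.7 and between 54.9 and 85, in both with no overlap, as for 9.16% of genes (changes of 1.02 ± 0.20 and 1.42 ± 0.29, adjusted p = 0.0909 and 0.0958). In these samples the 4 stromal markers summed to between 19.7 and 33 FPKM for sham, 17.7 and 35.2 for UUO and 21.5 and 38 for rUUO, and its part in these values was not tested.

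The change in stromal cells differed from that in endothelial cells for 4 of 10 genes in UUO against sham, where 13.1% of 14332 genes differed. Here the filter took the mean over all samples. Lmod1 and Myocd passed it through their stromal values and did not pass the filter in endothelial cells alone. The difference, stromal minus endothelial, was 2.15 ± 0.51 for Acta2 (limma, adjusted p = 0.00295), 4.73 ± 1.13 for Cnn1 (adjusted p = 0.00309), -1.97 ± 0.47 for Cspg4 (adjusted p = 0.00332) and -3.15 ± 0.48 for Mcam (adjusted p = 6.26e-06). The difference alone does not show that Mcam rose in endothelial cells. Mcam fell in the stromal fit and rose in the endothelial fit, but this rise was not called in 1 fit over all 4 populations (1.03, adjusted p = 0.109). In rUUO against UUO, 3 of 10 differed, against 0.963% of all genes: Cnn1 (-5.64 ± 1.13, adjusted p = 0.00528), Rgs5 (-2.24 ± 0.49, adjusted p = 0.0124) and Acta2 (-2.02 ± 0.51, adjusted p = 0.0403). Endothelial Cnn1 lay between 0.39 and 15.1 FPKM for sham, 0.12 and 2.42 for UUO and 4.17 and 20.8 for rUUO, so its UUO values were low. The call on Cnn1 in rUUO against UUO was lost with a pseudocount of 0.1 (-7.07, adjusted p = 0.0519). The call on Acta2 was lost in 15 of 31 alternatives (adjusted p up to 0.161), 12 of them through leaving out 1 sample: endothelial UUO replicate 1 or 4, endothelial rUUO replicate 2, 4 or 6, stromal UUO replicate 1, 2 or 3, or any stromal rUUO sample. In rUUO against sham, 3 of 10 differed, against 6.73%: Mcam (-2.90 ± 0.46, adjusted p = 2.33e-05), Rgs5 (-1.99 ± 0.47, adjusted p = 0.00447) and Cspg4 (-1.52 ± 0.46, adjusted p = 0.0332). The call on Cspg4 was lost in 11 of 31 alternatives (adjusted p up to 0.148), 9 of them through leaving out 1 sample: endothelial sham replicate 1 or 4, endothelial rUUO replicate 2 or 6, stromal sham replicate 1, 2 or 3, or stromal rUUO replicate 2 or 4.

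**Figure D5:**
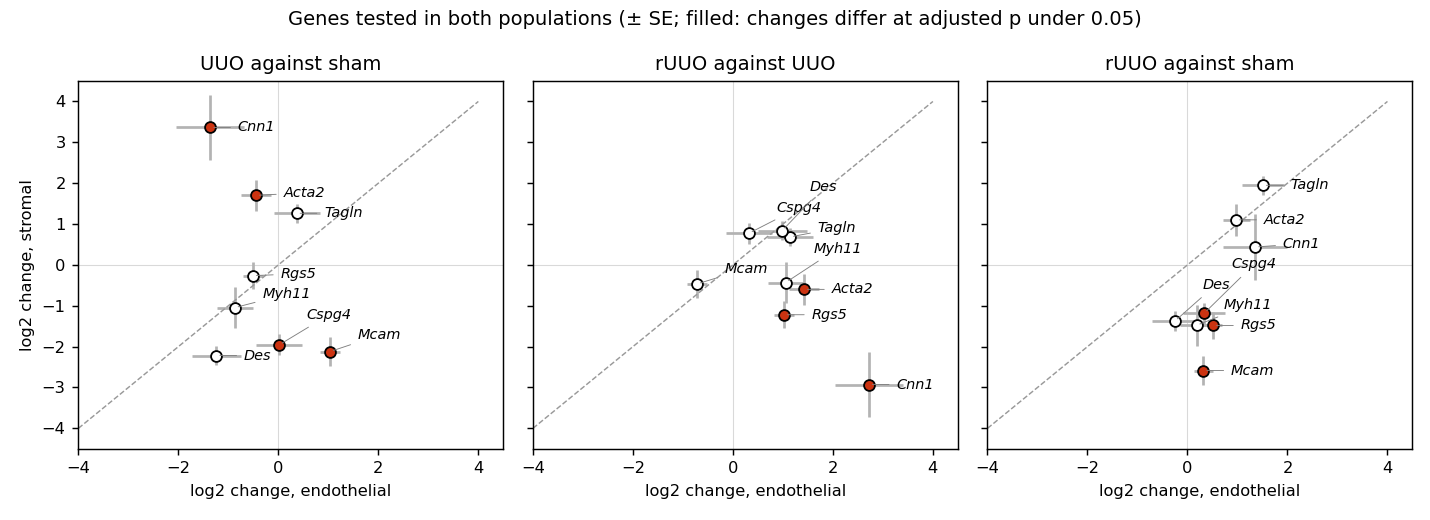
Log2 change in stromal cells (vertical, ± SE) against that in endothelial cells (horizontal, ± SE) for the 8 genes tested in both; the dashed line marks equal change and filled points changes that differ at an adjusted p under 0.05. Cnn1 lies upper left in UUO against sham and lower right in rUUO against UUO, and Mcam lies below the line in both comparisons with sham.

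PT cells held little of the 10 genes, and 5 of the 6 tested rose after obstruction. The filter took the mean over all PT samples. Tagln, Myh11 and Mcam, at means of 0.41, 0.2 and 0.467 FPKM in PT sham, passed it only through UUO and rUUO. A gene this low in sham was tested only where it was higher after UUO or rUUO, so the count of 5 of 6 is partly set by the filter. Acta2 was 1.25, 2.18 and 1.03 FPKM in PT sham, 12, 10.6, 11.7 and 4.87 in UUO, and 12.4, 11.4 and 15.7 in rUUO, with sham below every other sample, as for 34.5% of genes against UUO and 20.6% against rUUO. These 5 rose in UUO against sham, where 32.8% of 11416 genes passed, 27.9% rose and the median of all genes was 0.51. They were Acta2 by 2.08 ± 0.31 (limma, adjusted p = 0.000221), Rgs5 by 1.78 ± 0.34 (adjusted p = 0.00139), Mcam by 1.42 ± 0.37 (adjusted p = 0.0104), Tagln by 1.08 ± 0.37 (adjusted p = 0.0368) and Myh11 by 0.97 ± 0.32 (adjusted p = 0.031). None passed in rUUO against UUO (3.83% of genes, none of the 6 with an unadjusted p under 0.05, against 21.4% of genes), and 3 rose in rUUO against sham, where 7.46% passed and 6.52% rose: Acta2 by 2.52 ± 0.34 (adjusted p = 0.000215), Rgs5 by 2.08 ± 0.36 (adjusted p = 0.00231) and Tagln by 1.68 ± 0.39 (adjusted p = 0.0169). In UUO against sham the call on Tagln was lost without PT UUO replicate 1 or 3 or any PT sham sample (adjusted p up to 0.112), and that on Myh11 without PT UUO replicate 1, 3 or 4 or any PT sham sample (adjusted p up to 0.107). With quantile normalization Tagln, Myh11 and Mcam lost the call in UUO against sham (adjusted p = 0.451, 0.486 and 0.177). Tagln in rUUO against sham was lost without PT sham replicate 1 or 4 or PT rUUO replicate 4 (adjusted p up to 0.0747), with quantile normalization (1.32, adjusted p = 0.0639) and with no filter on low values (adjusted p = 0.0851), and without that filter the UUO calls on Tagln and Myh11 were lost as well (adjusted p = 0.112 and 0.0533). The 6 PT markers themselves summed to between 1938 and 2526 FPKM in PT sham, 624 and 1036 in UUO and 1235 and 1390 in rUUO, and the 3 thick ascending limb markers to between 17.7 and 22.1, 142 and 179.6 and 46.5 and 135, with sham apart from both groups in each. In PT samples the 4 stromal markers summed to between 9.31 and 12.7 FPKM for sham, 9.32 and 22.8 for UUO and 13 and 16.1 for rUUO, and the 6 endothelial markers to between 9.54 and 15.8, 12.1 and 26.9 and 17.3 and 20.3, and their part in these rises was not tested.

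In macrophages 6 of the 10 genes were tested and none passed limma in any comparison, where 4.99%, 0% and 3.44% of 13332 genes passed in UUO against sham, rUUO against UUO and rUUO against sham. At an unadjusted p under 0.05 there were 3, 0 and 2 of the 6, against 19.7%, 7.09% (945 genes) and 15.9% of all genes. The filter took the mean over all macrophage samples. Cnn1, Des and Mcam, at means of 0.138, 0.485 and 0.94 FPKM in macrophage sham, passed it only through UUO or rUUO. These counts are therefore partly set by the filter. In macrophages Acta2 lay between 1.89 and 2.86 FPKM for sham, 3.82 and 9.69 for UUO and 5.17 and 13.2 for rUUO, and Rgs5 between 0.92 and 2.44, 3.2 and 7.23 and 3.05 and 12.2. For both, sham lay below every other sample, as for 6.04% of genes against UUO and 8.78% against rUUO, with changes of 1.37 ± 0.36 and 1.64 ± 0.43 in rUUO against sham (adjusted p = 0.0538 and 0.0548). In the same samples the 6 PT markers summed to between 86 and 119 FPKM for sham, 18.2 and 34.2 for UUO and 15.3 and 19 for rUUO, and 2 lymphocyte markers to between 0.25 and 0.72, 1.92 and 24.7 and 4.34 and 16.6, both without overlap of sham and the other groups. The 4 stromal markers summed to between 6.76 and 25.4, 19.2 and 39.3 and 20 and 44.6, which overlap. Their part in these values was not tested. Without macrophage UUO replicate 1, UUO replicate 2 or rUUO replicate 4, between 1 and 2 of the 6 passed in rUUO against sham.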

How the data were processed

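RNA of FACS-sorted mouse kidney cells had been amplified with the Ovation RNA-Seq System V2. The authors deposited FPKM per gene (mouse build mm10, that is GRCm38), 1 column per sample, rounded to 2 decimals. The submitters' processing notes name FastQC, Bowtie2, RSEM and DESeq2, with no role or version. Of 46 value columns, 44 were used: 2 endothelial columns carry the same sample name and could not be told apart, and no column is named for PT sham 3. One PT title names both surgeries, and the treatment field (UUO) decided its group. No pair of columns held identical values.

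FPKM + 1 was taken to log2, genes averaging under 1 FPKM in a population were dropped, and groups were compared by limma 3.58.1 (lmFit, eBayes with an intensity trend, R 4.3.3) with Benjamini-Hochberg adjustment at 0.05. Stromal and endothelial changes were compared in 1 fit over all 12 groups, where the same filter was put on the mean over all samples. The fit was tested on simulated data. Other steps used Python 3.11.15. Relative depth came from the low values of single-exon genes. Fold changes on this scale understate those of low genes.

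The 10 genes, the context lists, the tests and the genes named were chosen with earlier results of these data known. Named were the 10 genes, the 5 genes most like Acta2 and Rgs5, paralogs, and per list the 3 largest rises and falls that passed with separate groups. Srf, Pdgfrb, and Ren1, Notch3 and Jag1 where not among these, were named after their values were seen. Alternatives were a pseudocount of 0.1, no filter, TPM, rescaling without mitochondrial genes, quantile normalization, no trend, 1 fit over all populations, a replicate block, samples of the same surgery and number as a random block (the labels do not say that they share a mouse), and each replicate left out.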

Additional observations from a re-analysis of the deposited data

Results flagged for a closer look

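Of 80 groups of 4 samples examined for the 10 genes, 7 held a sample far from the other 3 on log2(FPKM + 1) by Dixon's test, and chance alone gives about 1 in 20. In stromal rUUO replicate 4, Mcam was 7.16 FPKM where the others had 14.1 to 14.6, and Acta2 was 226 FPKM where they had 262 to 266. Acta2 was 25.3 FPKM in endothelial sham replicate 2 against 40 to 43.5 in the others, and 4.87 FPKM in PT UUO replicate 4 against 10.6 to 12. In PT UUO replicate 1, Myh11 was 1.64 FPKM against 1.21 to 1.27 and Lmod1 was 0.48 against 0.01 to 0.05. Lmod1 was 0.2 FPKM in macrophage UUO replicate 2 against 0.04 to 0.05, levels too low to read further.

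The change differed between stromal and endothelial cells in 10 of 30 tests of the 10 genes in the 3 comparisons (limma interaction, adjusted over all genes). The 30 include Lmod1 and Myocd, which were too low in endothelial cells to pass the filter there. In UUO against sham the stromal minus endothelial difference was 4.73 for Cnn1, 2.15 for Acta2, -1.97 for Cspg4 and -3.15 for Mcam. In rUUO against UUO it was -5.64 for Cnn1, -2.24 for Rgs5 and -2.02 for Acta2. In rUUO against sham it was -2.90 for Mcam, -1.99 for Rgs5 and -1.52 for Cspg4.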

How the results depend on the processing

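The 11 calls among the 10 genes in stromal cells kept their direction and stayed past the threshold in all 220 alternatives tried. The count of all genes passing was less stable in rUUO against UUO, where 585 passed: it was 200 with no filter on low values, 360 with quantile normalization, 973 in 1 fit over all 4 populations, and 289 to 768 with 1 replicate left out. With the replicate block it was 116, and 1574 in rUUO against sham where 2407 had passed. The replicate block ended the calls on Mcam in endothelial cells (1.15, adjusted p = 0.0506, leaving 0 of the 10) and on Tagln in PT cells (1.12, adjusted p = 0.0544) in UUO against sham, and turned the sign of the uncalled Cnn1 in rUUO against sham (-0.38). Deviations of samples of the same number correlated at -0.06 to 0.02 in stromal and -0.04 to 0.05 in endothelial samples. They did so at -0.04 to 0.07 in macrophage and -0.01 to 0.12 in PT samples. For unlike numbers the ranges were, in the same order, -0.06 to 0.08, -0.07 to 0.08, -0.09 to 0.06 and -0.1 to 0.06. In PT samples the pairs numbered 4 (0.07, 0.07 and 0.12) lay above every pair of unlike numbers. The numbers were not taken as pairs. In endothelial cells 0 of the 10 passed in UUO against sham without the intensity trend or in 1 fit over all 4 populations, and 1 passed in rUUO against sham in the latter fit. That fit also gave 2 of the 10 in stromal rUUO against UUO where 0 had passed, 1 in macrophage UUO against sham and 2 in macrophage rUUO against sham. The latter was 1 with a pseudocount of 0.1 and 2 with quantile normalization, where 0 had passed. In PT cells 5 had passed in UUO against sham, and 3 did with no filter, 2 with quantile normalization and 3 in 1 fit over all 4 populations. A pseudocount of 0.1 left 1 of the 3 differences between stromal and endothelial cells in rUUO against UUO.

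With 1 replicate left out, the count of the 10 genes passing ran from 0 to 2 in stromal rUUO against UUO, 3 to 5 in PT UUO against sham, 0 to 1 in all 3 endothelial comparisons, 0 to 2 in macrophage rUUO against sham, and 2 to 5 for the differences between stromal and endothelial cells in rUUO against sham. The sign of the uncalled Myocd turned in stromal UUO against sham without UUO replicate 2 (-0.13), UUO replicate 3 (-0.38) or sham replicate 3 (-0.31), over a range of -0.38 to 0.79. In rUUO against sham it turned for Myocd without sham replicate 1 (range -0.95 to 0.02) and for Cnn1 without sham replicate 3 (range -0.45 to 1.38). The cause was not tested. Without counts, depth cannot bound the low values, and Myocd and Lmod1 outside stromal cells were too low to compare.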
